A study of Homo sapiens with 6 samples.

Results

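Hydrogen sulfide is made from cysteine and its relatives by enzymes that include the 3 taken as its sources here. It is burned off in mitochondria by a short chain of others. The 7 genes described here are MPST, CTH and CBS, whose products release sulfide, and SQOR, ETHE1, TST and SUOX, whose products oxidise it or carry its sulfur onward. They were found by gene symbol among the 62443 genes of the deposited table, and each matched 1 gene. MPST was put forward because it had one of the smallest p-values among genes higher in GLUP, and the others were added for their role in the pathway. The differences between the groups are therefore given for these 7 genes as a description, with a standard error and no p-value.

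RNA sequencing was performed on HGC-27, an established human line of gastric cancer cells, in 3 libraries labelled Con and 3 treated with the GLUP peptide. GLUP is a synthetic peptide modelled on the part of VGLL4 that binds the transcription factor TEAD4, and it was built to hold TEAD4 molecules together. The labels list no treatment for Con, whereas the methods of the study name the storage buffer of the peptide as the control, and the Results and the Methods of the study give different treatment times. The methods of the study describe the RNA as coming from biological replicates, but no label says which libraries came from separate cultures, so the errors measure the spread between these libraries, part of which may be technical. The limma SE also draws on the spread of the other tested genes.

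CBS joins homocysteine to serine, and CTH cleaves the product to cysteine: together they form the transsulfuration pathway, and both can release hydrogen sulfide from cysteine. MPST (mercaptopyruvate sulfurtransferase) takes sulfur from 3-mercaptopyruvate, a product of cysteine transamination, and passes it to thioredoxin and other thiols. In mitochondria SQOR oxidises sulfide and hands the electrons to ubiquinone, ETHE1 turns the resulting persulfide into sulfite, TST (rhodanese) moves sulfane sulfur between acceptors, and SUOX oxidises sulfite to sulfate.

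The values are FPKM, the fragments per gene scaled to gene length and to the library total. That puts different genes on a common scale, but any bias with base composition shared by all libraries was not measured. They summed to between 909735 and 965147 per library. Read counts were not recovered. The most common low value of genes with 1 transcript gave rough relative depths of 0.834 (Con replicate 2) to 1 (GLUP replicate 2). The bin that held this value took in only 2.36% to 3.07% of the values above 0, so these depths are uncertain. Con replicate 2 stood apart: its mean Pearson correlation with the other 5 libraries across 7406 tested genes was 0.898, against 0.954 to 0.964 for the rest. Base composition also varied between libraries. Each library's departure from the mean of a gene was set against GC content across 7279 genes, and Spearman's rho came to -0.34 for Con replicate 1, to -0.60 for Con replicate 2, and to between 0.34 and 0.54 in Con replicate 3 and the GLUP libraries. As markers of the line, VIM stood at 222.2 to 387.2 FPKM and KRT8 at 1.05 to 2.30 FPKM. EPCAM and CDH1 reached no more than 0.124 FPKM, and 4 of 5 markers of differentiated stomach (TFF1, TFF2, GKN1 and MUC6) were listed at 0 throughout. The summed level of 5 epithelial markers was 2.97 to 3.70 FPKM in Con and 5.18 to 6.06 FPKM in GLUP. KRT8, KRT18 and KRT19 had higher means in GLUP, whereas EPCAM and CDH1 had lower ones. The sum of 3 mesenchymal markers, nearly all of it VIM, was 336.8 to 390.5 FPKM in Con and 222.8 to 336.6 FPKM in GLUP. VIM alone overlapped between the groups, at 335.6 FPKM in Con replicate 1 and 336.0 FPKM in GLUP replicate 1. The other mesenchymal markers were low: FN1 was at 0.644 to 3.25 FPKM, and CDH2 reached no more than 0.0508 FPKM. The part of these markers in the results below was not tested.

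Among the chosen sulfide-producing enzymes, the order of the transcripts in FPKM was turned round between the groups. CTH was the higher of the pair in every Con library, and MPST in every GLUP library, while CBS was listed at 0 in all 6.

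MPST (ENSG00000128309, protein-coding, chromosome 22, 37415676 to 37425862, plus strand, GRCh37) measured 1.19, 1.01 and 1.69 FPKM in the Con libraries, in order of replicate number, and 5.75, 5.63 and 3.91 FPKM in those of GLUP. The lowest GLUP library was thus well above the highest Con library. Con averaged 1.30 ± 0.349 FPKM (SD, n = 3), GLUP averaged 5.10 ± 1.03 FPKM (SD, n = 3), and the ratio was 3.93. As log2(FPKM + 1), a scale on which changes of low values look smaller than they are, GLUP minus Con was 1.40 (limma SE 0.26). The median of this difference over all tested genes was -0.23, and relative to that median MPST was 1.63 higher. Leaving out any single library gave 1.31 to 1.55, so the difference was of similar size without Con replicate 2 (1.31). Against the median gene of its own library, MPST stood at -1.41, -1.43 and -0.77 on the log2 scale in the Con replicates and at 0.60, 0.62 and 0.19 in the GLUP replicates.

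CTH (ENSG00000116761, chromosome 1, 70876901 to 70905534, plus strand), cystathionine gamma-lyase, went the other way. It was at 4.61, 4.08 and 3.38 FPKM in Con and at 1.98, 1.22 and 1.88 FPKM in GLUP, again without overlap. The means were 4.02 ± 0.620 FPKM (SD, n = 3) and 1.69 ± 0.415 FPKM (SD, n = 3), so that Con was 2.38 times the level of GLUP. On the log2(FPKM + 1) scale the difference was -0.90 (limma SE 0.25), or -0.67 once that shared median was taken off. With any single library left out, -0.77 (without GLUP replicate 2) was the smallest of these differences.

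CBS (ENSG00000160200, chromosome 21, 44473301 to 44497053, minus strand), cystathionine beta-synthase, was listed at 0 FPKM in each of the 6 libraries. An exact 0 can be a failed estimate in a table without counts. The annotation also tags ENSG00000274276 as an artifactual duplicate of CBS, and that row was likewise listed at 0 in all 6, so the level of CBS is uncertain. U2AF1, a splicing factor gene beside CBS (chosen after its values were seen), has a duplicate row of the same kind. It was at 5.90 to 12.4 FPKM under its own identifier and at 31.2 to 43.8 FPKM under the duplicate, ENSG00000275895, so its expression was split between rows and neither was 0.

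**Figure D1:**
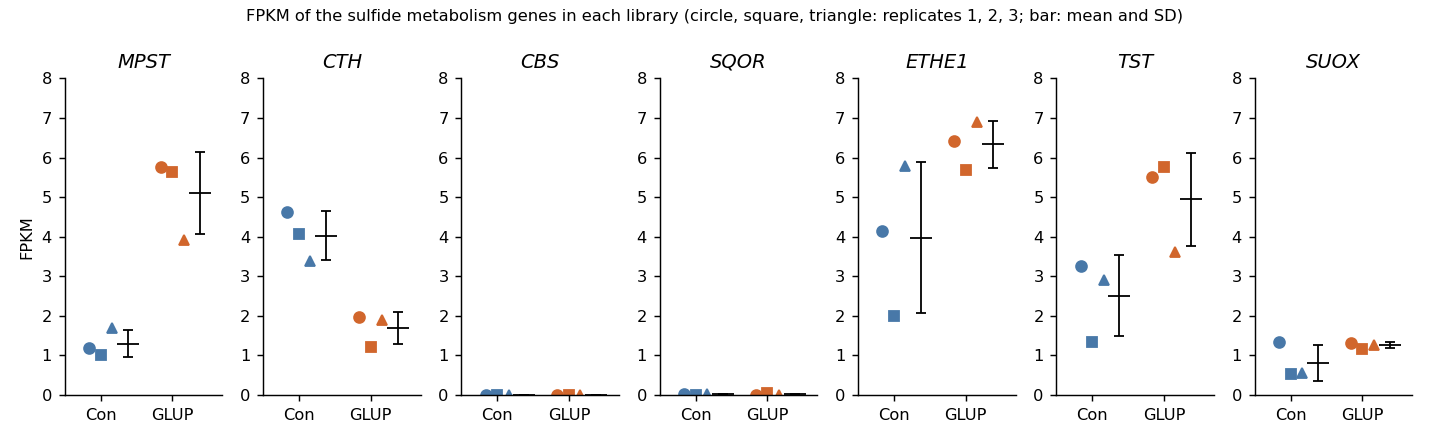
FPKM (y axis, 0 to 8) of the 7 genes in the 3 Con (blue) and 3 GLUP (orange) libraries, with circles, squares and triangles for replicates 1, 2 and 3 and black bars for the mean and SD of each group (n = 3). MPST and TST lie higher in every GLUP library than in any Con library, CTH lies lower, ETHE1 and SUOX overlap, and CBS and SQOR sit on the axis at or near 0.

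Because the 3 producers are read in the same library, their ratio does not depend on how the library was scaled. The ratio of MPST to CTH in FPKM was 0.259, 0.248 and 0.4996 in the Con replicates and 2.91, 4.63 and 2.08 in the GLUP replicates. The sum of MPST, CTH and CBS differed less: it was 5.06 to 5.81 FPKM in Con and 5.79 to 7.73 FPKM in GLUP, and the ranges touched. SELENBP1, a related gene described below whose product also releases sulfide, was not part of that sum. Of the summed FPKM of all 7 genes, MPST held 8.18% to 11.8% in Con and 22.3% to 28.9% in GLUP. CTH held 23.6% to 45.5% and then 6.24% to 10.7%.

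MPST and CTH differ in base composition, and so did the libraries. The canonical MPST transcript has a GC content of 66.5%, higher than 99.2% of the tested genes with a known sequence, whereas that of CTH is 43%, higher than 31.8% of them. After a loess fit on GC content and length was subtracted from each library, GLUP minus Con was 0.96 (SE 0.24) for MPST and -0.46 (SE 0.19) for CTH. MPST then stood at 1.18, 1.89 and 1.17 on the log2 scale in the Con replicates and at 2.45, 2.45 and 2.21 in the GLUP replicates, still without overlap. MPST minus CTH was -0.92, -0.05 and -1.08 in Con, and 0.65, 1.05 and 0.48 in GLUP, so that the groups remained apart with Con replicate 2 close to 0. The fit was made on departures from the mean of each gene, so any bias shared by all libraries would remain.

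**Figure D2:**
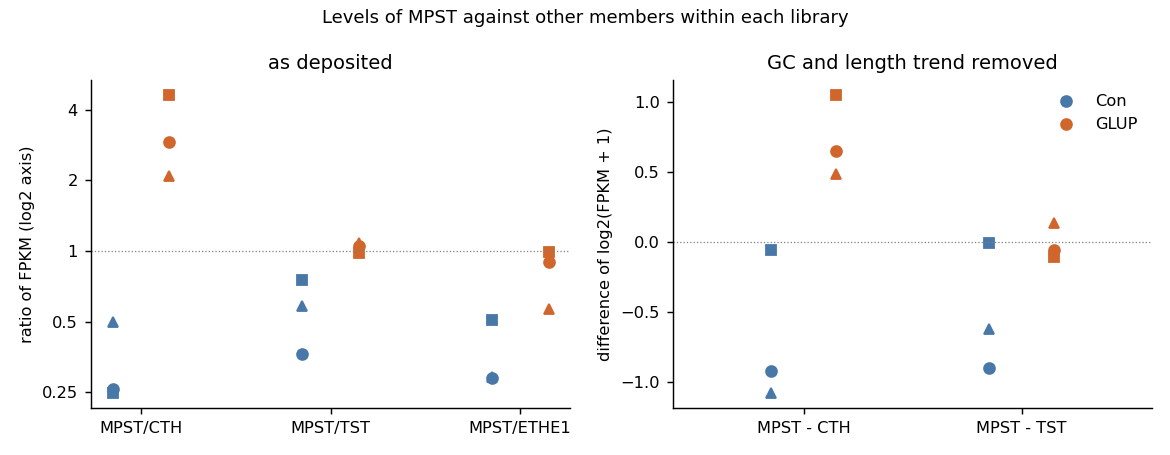
Left, ratio of the FPKM of MPST to that of CTH, TST and ETHE1 within each library (log2 axis, dotted line at 1); right, difference of log2(FPKM + 1) between MPST and CTH and between MPST and TST after the GC and length trend was removed (dotted line at 0). Con libraries are blue and GLUP libraries orange, with circles, squares and triangles for replicates 1, 2 and 3: MPST to CTH separates the groups in both panels, and MPST to TST only on the left.

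The sulfide-oxidising enzymes were examined next. TST (ENSG00000128311, chromosome 22, 37406900 to 37416224, minus strand) is the nearest neighbour and a relative of MPST, and the genes lie head to head. It was at 3.27, 1.35 and 2.91 FPKM in Con and at 5.50, 5.75 and 3.6005 FPKM in GLUP. The groups did not overlap, but the gap between Con replicate 1 and GLUP replicate 3 was small. After the loess fit on GC and length was subtracted they overlapped, with Con replicate 1 at 2.08 and GLUP replicate 3 at 2.07 on the log2 scale. The means were 2.51 ± 1.02 FPKM (SD, n = 3) and 4.95 ± 1.18 FPKM (SD, n = 3), a ratio of 1.97. On the log2(FPKM + 1) scale the difference was 0.79 (limma SE 0.31), or 1.02 relative to the median, and it was 0.52 without Con replicate 2 and 0.46 after the loess fit was subtracted.

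The overlap of MPST and TST was measured on the annotation. Their gene bodies share 549 bases, but their exons share only 6, which is 0.0888% of the exonic bases of MPST and 0.320% of those of TST. Strand use in the counting is not stated. The ratio of MPST to TST was 0.365, 0.751 and 0.580 in Con and 1.05, 0.979 and 1.09 in GLUP. In FPKM as deposited, the pair thus did not move in fixed proportion. After the loess fit, MPST minus TST overlapped between the groups, at -0.90, -0.01 and -0.62 on the log2 scale in Con and at -0.06, -0.11 and 0.14 in GLUP.

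Other genes around the pair were below the minimum mean of 1 FPKM. Of 8 protein-coding genes within 200 kb, CSF2RB, TEX33 and TMPRSS6 were listed at 0 in all libraries. C1QTNF6, a secreted protein gene 150.3 kb away, was the highest, at 0.452, 0.233 and 0.220 FPKM in Con and at 1.13, 0.649 and 0.398 FPKM in GLUP, with overlapping groups. KCTD17, which lies 21.9 kb beyond MPST, was at 0.141 FPKM in Con replicate 1 and listed at 0 elsewhere.

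ETHE1 (ENSG00000105755, chromosome 19, 44010871 to 44031382, minus strand), the persulfide dioxygenase, had the highest mean of the 7 genes over all libraries, at 5.15 FPKM. CTH was above it in Con replicates 1 and 2, and TST in GLUP replicate 2. ETHE1 was at 4.14, 2.00 and 5.79 FPKM in Con and at 6.42, 5.69 and 6.89 FPKM in GLUP. Con replicate 3 lay within the GLUP range, and Con replicate 2 far below it. The means were 3.98 ± 1.90 FPKM (SD, n = 3) and 6.33 ± 0.604 FPKM (SD, n = 3). The log2 difference of 0.63 (limma SE 0.33) became 0.31 without Con replicate 2 and 0.39 after the loess fit was subtracted.

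SUOX (ENSG00000139531, chromosome 12, 56390964 to 56400425, plus strand), sulfite oxidase, was close to the minimum of 1 FPKM at which genes were tested. It was at 1.33, 0.520 and 0.559 FPKM in Con and at 1.32, 1.17 and 1.27 FPKM in GLUP. Con replicate 1 lay just above the highest GLUP library, and the log2 difference was 0.35 (limma SE 0.23). It was 0.55 without Con replicate 1, 0.24 without Con replicate 2 and 0.26 without Con replicate 3. After the loess fit the groups of SUOX no longer overlapped, at 0.58 to 1.06 on the log2 scale in Con and 1.08 to 1.24 in GLUP. SQOR (ENSG00000137767, chromosome 15, 45923346 to 45983479, plus strand), which feeds electrons from sulfide into the respiratory chain, was at 0.0351, 0 and 0.0146 FPKM in Con and at 0, 0.0357 and 0 FPKM in GLUP. No fold is given for a gene at this level.

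In order of the mean level in Con, CTH (4.02 FPKM) and ETHE1 (3.98 FPKM) came first and did not differ beyond their spread. TST (2.51 FPKM), MPST (1.30 FPKM) and SUOX (0.804 FPKM) followed, and SQOR (0.0166 FPKM) and CBS (0 FPKM) were last. The ranges of ETHE1 and TST, of TST and MPST and of MPST and SUOX overlapped. In GLUP the order was ETHE1 (6.33 FPKM), MPST (5.10 FPKM), TST (4.95 FPKM), CTH (1.69 FPKM) and SUOX (1.25 FPKM). MPST and TST were within each other's SD there, and the ranges of CTH and SUOX overlapped. The range of ETHE1 also overlapped those of MPST and TST in GLUP. These levels placed ETHE1 above 56.4% of the tested genes by mean over the 6 libraries, TST above 48.2%, MPST above 43.9%, CTH above 40.3% and SUOX above 1.40%.

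Of the 7 members, 5 reached the minimum mean of 1 FPKM, and CBS and SQOR did not. The groups did not overlap for 3 of the 5, as for 30.3% of all tested genes. All GLUP values lay above all Con values for MPST and TST, as for 7.55% of tested genes, and below for CTH, as for 22.7%. After the loess fit the members that separated were MPST, SUOX and CTH, and no longer TST. The margins of SUOX and TST were small on the log2 scale. SUOX was at 1.06 in Con replicate 1 and 1.08 in GLUP replicate 2, and TST at 2.08 in Con replicate 1 and 2.07 in GLUP replicate 3. The share of all tested genes that separated after this fit was not computed. A higher mean in GLUP was found for MPST, TST, ETHE1 and SUOX, compared with 34.5% of tested genes. MPST was the 1 member with a log2 difference above 1, a size that 2.94% of tested genes reached. Since MPST was chosen on this comparison, nothing is read from these counts. In bulk RNA, fewer cells with a transcript and less transcript per cell cannot be told apart.

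**Figure D3:**
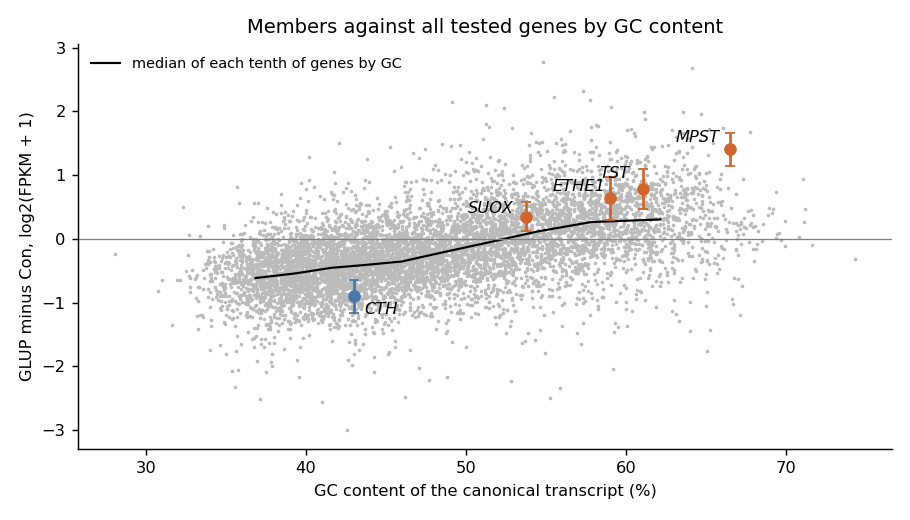
Difference between GLUP and Con on log2(FPKM + 1) (y axis) against GC content of the canonical transcript in % (x axis) for 7279 tested genes (grey), with the median of each of 10 equal bins of genes by GC as a black line and the 5 tested members with their limma SE (orange higher, blue lower in GLUP). MPST, TST, ETHE1 and SUOX, with GC contents of 53.7% to 66.5%, lie above the line and CTH, at 43%, lies below it.

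The differences of the members can be set beside those of genes of like base composition. In the bin with the highest GC content of 10 equal bins, which holds MPST and TST, the median log2 difference was 0.30 over 728 genes. The bin of ETHE1 had a median of 0.26, that of SUOX 0.12 and that of CTH -0.41. The share of each difference that base composition carries was not tested beyond the values with the trend removed.

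**Figure D4:**
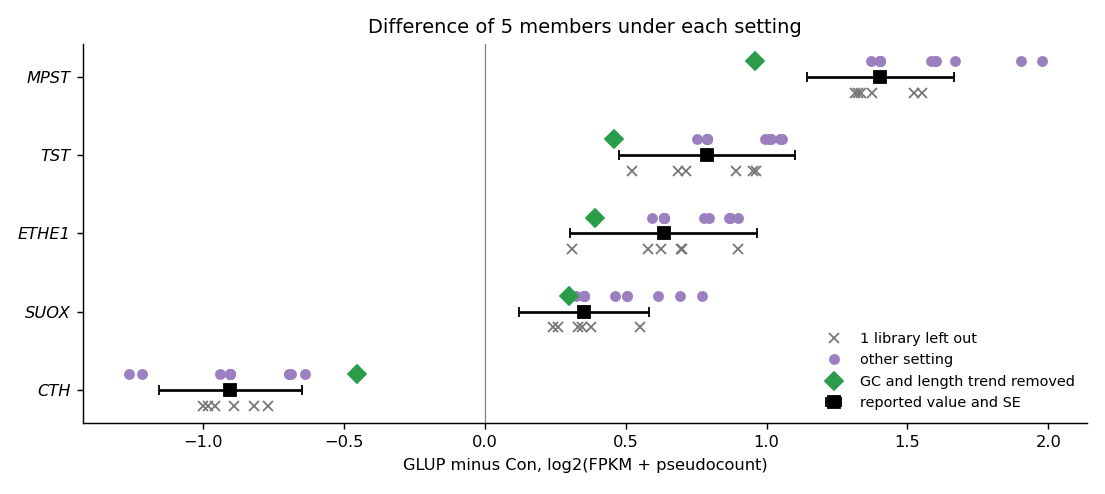
Difference between GLUP and Con (x axis, log2 of FPKM plus a pseudocount) of 5 members under each way of processing the values: the reported value with its limma SE (black square), each library left out in turn (grey crosses), the GC and length trend removed (green diamond) and the other settings (violet circles). MPST, TST, ETHE1 and SUOX stay above 0 and CTH below 0 in all settings shown, and MPST ranges from 0.96 to 1.98.

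How MPST varied over the 6 libraries was compared with every other tested gene by Pearson's r on log2(FPKM + 1), as a description over 6 points that share libraries and their base composition. Both groups were pooled, so r carries the difference between GLUP and Con for which MPST was chosen. It does not show whether genes vary together within a group. TST had an r of 0.87 with MPST, ETHE1 0.74, SUOX 0.60 and CTH -0.95. Of 7401 other genes, 135 were as close to MPST as TST or closer, and 103 were as opposite as CTH or more so. The most alike were DDX49, an RNA helicase (r = 0.997), RPL31, a ribosomal protein (0.98), FSTL3, a follistatin-like activin binder (0.98), the pseudogene ENSG00000241255 (0.98) and CNPY4 (0.97). The most opposite were the pseudogene CRYBB2P1, DNTTIP1, the long noncoding RNA SRP14-DT, GPNMB and SNAPC1, with r between -0.996 and -0.987. An r above 0.9 was shared by 79 genes and one below -0.9 by 425.

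Promoter sequence was then read from the RefSeq table of GRCh38.p14, which spans 250 bases before to 50 after each start site and held CBS, CTH, ETHE1, SQOR and SUOX but not MPST and TST. Each window was searched on both strands for CATTCC, the core bound by TEAD factors and so by the partner of GLUP, for TGACNNNGC, the antioxidant response element core bound by NRF2, and for TGATGNAAN, the element bound by ATF4. Of 35116 promoters, 14.0% held the first, 13.3% the second and 3.61% the third. ETHE1 was the only one of the 5 with CATTCC, which begins at the last base before the start site and is followed directly by an NRF2 core. It is shown for that reason, over 30 bases at chr19:43527181-43527210 on the minus strand, with the TEAD core as the first 6 capitals and the NRF2 core as the next 9.
ETHE1 start site: cctccgctCATTCCTGACCCCGCagtgggc
CTH held none of the 3 elements. As the member that was lower in GLUP, its 250 bases before the start site are given, from chr1:70411018-70411267 on the plus strand, in lower case throughout since nothing matched.
CTH upstream: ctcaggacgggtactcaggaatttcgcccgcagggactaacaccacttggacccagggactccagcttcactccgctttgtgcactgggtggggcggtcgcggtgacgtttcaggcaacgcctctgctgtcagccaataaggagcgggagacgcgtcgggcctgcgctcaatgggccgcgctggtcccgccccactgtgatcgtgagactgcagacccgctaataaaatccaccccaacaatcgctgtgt
SQOR and SUOX also held none, and 1 of the 3 CBS windows held an NRF2 core. A match of letters is a description and not evidence of binding.

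The surrounding sulfur metabolism was covered by a list of 48 related genes grouped by role, of which 29 reached the minimum mean of 1 FPKM. By limma with Benjamini-Hochberg adjustment over all 7406 genes, 0 of the 29 had an adjusted p under 0.05, where the share of all tested genes was 0.0%. The smallest adjusted p of the list was 0.194. At an unadjusted p under 0.05, limma gave 1 gene higher and 6 lower, against 4.46% and 17.2% of all tested genes (21.7% in either direction). All GLUP values lay below all Con values for 11 of the 29 and above for 1, compared with 22.7% and 7.55% of all tested genes. The median log2 difference of the list was -0.35, beside -0.23 for all genes tested, and 19 of the 29 had a lower mean in GLUP (65.5% of all tested genes did). That balance depended on scaling: with trimmed mean scaling 17 of the 29 were lower (50.6% of all genes), and after the loess fit on GC and length 12 were, with a list median of 0.04 (49.7% of all genes were lower). The differences of single related genes below are given without that fit. AHCYL1, SLC7A11, GCLC, GCLM, MOCS2 and ISCU had lower means in GLUP and GC contents of 35.4% to 47.0% (tested median 47.2%). SLC3A2 and SELENBP1 had higher means and GC contents of 57.8% and 57.1%. Against this order, LYRM4, CARS2 and TXNRD2 (52.1% to 62.1%) had lower means, and NFS1 (46.7%) a barely higher one. The part of base composition in these differences was not tested.

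Cysteine reaches the MPST route by transamination, through the aspartate aminotransferases GOT1 and GOT2 and the kynurenine aminotransferases. GOT1 was at 13.8 to 31.5 FPKM in Con and 22.8 to 25.6 FPKM in GLUP, with a log2 difference of 0.05 (limma SE 0.36). GOT2, its mitochondrial counterpart, was at 8.14 to 11.5497 FPKM in Con and 11.5478 to 11.97 FPKM in GLUP, so that its groups barely overlapped. The log2 difference of GOT2 was 0.27 (limma SE 0.27). KYAT3 was at 3.596 to 6.02 FPKM in Con and at 2.79 to 3.37 FPKM in GLUP. Its difference was -0.58 with an adjusted p of 0.246 in limma. GOT1 and GOT2 were thus above MPST in level in every library and overlapped between the groups. CDO1, which commits cysteine to taurine and sulfate, and DAO, which makes 3-mercaptopyruvate from D-cysteine, were listed at 0 throughout.

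Thioredoxin, the acceptor of the sulfur that MPST carries, was by far the most abundant of the list. TXN stood at 2913 to 4535 FPKM in Con and 3035 to 3800 FPKM in GLUP. SELENBP1, a methanethiol oxidase that also releases hydrogen sulfide, was the 1 related gene with GLUP entirely above Con. It was at 17.0, 7.16 and 17.3 FPKM in Con and at 33.8, 28.9 and 24.3 FPKM in GLUP. Its log2 difference was 1.10 (limma SE 0.37), and with an adjusted limma p of 0.198 it did not pass. Among the rhodanese-domain relatives, TSTD3 had the lowest difference, -1.02 (limma SE 0.48), but its Con values ran from 2.80 to 14.2 FPKM and overlapped those of GLUP.

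In the methionine cycle upstream of transsulfuration, AHCY, which makes homocysteine, was at 29.3, 7.02 and 22.2 FPKM in Con and at 24.2, 22.5 and 14.5 FPKM in GLUP. Its relative AHCYL1, known as a regulator of calcium release, was at 8.92, 11.6 and 7.25 FPKM in Con and 3.46, 3.59 and 2.89 FPKM in GLUP. The log2 difference of AHCYL1 was -1.23 (limma SE 0.28, adjusted p 0.194), the lowest of the list.

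Cystine enters cells through a carrier of SLC7A11 and SLC3A2. SLC7A11, the cystine-specific subunit, was at 2.37, 2.11 and 1.71 FPKM in Con and at 0.966, 0.842 and 0.885 FPKM in GLUP, a log2 difference of -0.69 (limma SE 0.21, adjusted p 0.194). SLC3A2, the heavy chain shared with other amino acid carriers, was at 93.0, 20.2 and 160.3 FPKM in Con and 185.2, 130.3 and 120.6 FPKM in GLUP, with overlap and a Con replicate 2 far below the rest. GCLC and GCLM, the subunits of the enzyme that draws cysteine into glutathione, had differences of -0.64 and -0.51 with no overlap between groups and adjusted p-values of 0.198 and 0.255 in limma.

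Of the enzymes that build cofactors with sulfur from cysteine, MOCS2, which assembles the molybdenum cofactor that SUOX needs, was at 3.72, 6.21 and 3.22 FPKM in Con and at 1.55, 1.84 and 2.14 FPKM in GLUP. Its log2 difference was -0.89 (limma SE 0.28, adjusted p 0.194). ISCU, the scaffold for iron-sulfur clusters, was at 60.6, 38.3 and 22.2 FPKM in Con and at 14.1, 15.9 and 16.6 FPKM in GLUP, with a difference of -1.22 (limma SE 0.38, adjusted p 0.194). NFS1, the desulfurase itself, was at 0.639 to 1.56 FPKM and 0.802 to 1.26 FPKM, with a difference of 0.01. PAPSS1, which activates sulfate, had a difference of -0.33 with an adjusted p of 0.414 in limma.

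The number of calls rested on Con replicate 3. Without it, 9 of the 29 related genes had an adjusted p under 0.05 in limma, all lower in GLUP, where 18.5% of all tested genes were called, 16.3% as lower. They were MAT2B, AHCYL1, SLC7A11, GCLC, CHAC2, KYAT3, TSTD3, MOCS2 and ISCU. Without any other single library the number was 0. The canonical transcripts of these 9 genes had GC contents of 35.4% to 47.0%, below the median of 47.2% over tested genes. Departures from the gene mean fell with GC content in Con replicates 1 and 2 (Spearman's rho -0.34 and -0.60). They rose with it in Con replicate 3 (0.46), as in the GLUP libraries. The part of base composition in these calls was not tested.

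**Figure D5:**
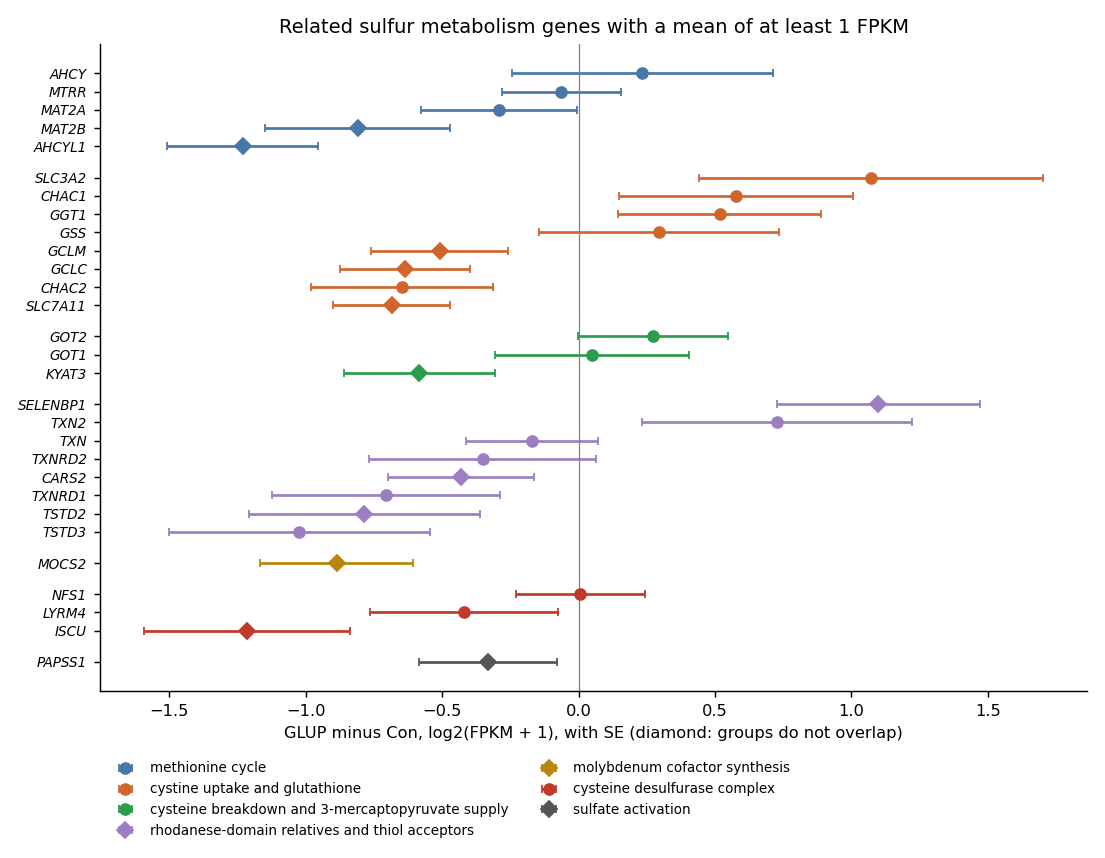
Difference between GLUP and Con on log2(FPKM + 1), with limma SE, for the 29 tested genes of the sulfur metabolism list, coloured by role and ordered within each role; diamonds mark genes whose groups do not overlap. SELENBP1 (1.10) and SLC3A2 (1.07) lie farthest to the right and AHCYL1 (-1.23) and ISCU (-1.22) farthest to the left, and no gene passed the adjusted threshold.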

How the data were processed

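The authors deposited 1 table of FPKM per Ensembl gene for 6 libraries, 62492 rows. The identifiers are those of a GENCODE annotation lifted to GRCh37, whereas the submitters' processing notes name HISAT2, Cufflinks, RSEM and GRCh38.p10 without roles. Strand use is not given in the sources used here. FPKM is relative to the library total and carries no counts, so count models were not used. The absolute depth is unknown, and the relative depths above are rough estimates. The 49 pseudoautosomal copies on chromosome Y, all at 0, were summed with their counterparts. GENCODE release 44 lifted to GRCh37 gave symbols, coordinates, canonical transcript length and GC content, the last for 98.3% of tested genes.

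Groups and replicate numbers were taken from the sample titles. The 7406 genes averaging 1 FPKM or more were fitted on log2(FPKM + 1) with limma 3.58.1 under R 4.3.3 (eBayes, trend), two-sided, without covariates, with Benjamini-Hochberg adjustment over all of them. SQOR and CBS were below this minimum. The fit takes the spread as equal in both groups. The median SD over genes was 0.43 in Con and 0.20 in GLUP on the log2 scale. The fit was tested on simulated data. Alternatives were pseudocounts of 0.1 and 0.01, no filter, minimums of 0.1 and 5 FPKM, 5 rescalings, removal of a loess trend in GC and length (span 0.5), eBayes without trend or robust, a replicate block, and leaving out each library. The named genes were the 7 members, up to 3 related genes a role (highest mean, largest rise, largest fall), the 5 genes most and least like MPST, and coding genes within 200 kb of it. Other related genes are named where their values bear on a count or on base composition. PECAM1, from the list of endothelial markers, was not analysed here. In the other lists, 0 of 4 blood, 0 of 2 endothelial and 0 of 3 hepatocyte markers exceeded 1 FPKM in any library. The members and lists were chosen with earlier results of these data known. Figures were drawn with matplotlib 3.10.9 under Python 3.11.15.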

Additional observations from a re-analysis of the deposited data

How the results depend on the processing

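MPST stayed higher and CTH lower in GLUP under every alternative run. The log2 difference of MPST, 1.40 as reported, was 1.90 and 1.98 with pseudocounts of 0.1 and 0.01 FPKM, 1.67 with median centring and 0.96 after subtraction of the loess fit on GC and length, and it moved by less than the spread between replicates in the other 15 of 19 alternatives (1.31 to 1.55 with 1 library left out). With a minimum of 5 FPKM it was not tested. CTH ranged from -1.26 (pseudocount of 0.01 FPKM) to -0.46 (loess fit subtracted). SUOX, 0.35 as reported, was 0.69 and 0.77 with pseudocounts of 0.1 and 0.01 FPKM and 0.61 with median centring, and was lowest (0.24) without Con replicate 2. TST ranged from 0.46 to 1.05 and ETHE1 from 0.31 to 0.90, and these 3 genes kept their direction in the alternatives that gave a value.

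Calls at an adjusted p under 0.05 in limma, 0 as reported with 1606 genes at an unadjusted p under 0.05, numbered 1 with a minimum of 5 FPKM, after subtraction of the loess fit and with eBayes without trend (CLPTM1L each time), and 1 with the replicate block (ENSG00000261553). These names were taken after their values were seen. With 1 library left out it ran from 0 to 1367, the highest without Con replicate 3 and 3 without Con replicate 2 (CLPTM1L, HSPB1 and ENSG00000261553). The number of related genes called, 0 as reported, ran from 0 to 9 with 1 library left out, and was 0 in the other alternatives. The cause was not tested. Replicate numbers were not taken as pairs: same-numbered libraries had correlations of their deviations of 0.13, -0.01 and -0.17. The block changed no call among the members and the related genes.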
